A study of Mus musculus and Rattus norvegicus with 32 samples.

Results

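The genes of the collagen alpha chains were read in heart tissue of mice and in cultured rat cardiomyocytes in which the RNA methyltransferase METTL5 was deleted or overexpressed. Members were all genes whose symbol has the form of a collagen chain (Col, a type number, a and a chain number), which gave 44 of the 55487 genes in each of the 3 mouse tables and 42 of the 32883 genes in the rat table. Col1a2 and Col6a3 were not analysed in the rat table. They were grouped into 11 fibrillar chains, 6 type IV chains of basement membranes, 9 chains of the fibril-associated collagens (FACIT) and 18 chains of other types in the mouse. Total RNA of each sample had been extracted, made into a library and sequenced, and each of the 8 groups held 4 libraries. Hearts of 1-month-old mice were labelled Mettl5-KO, a knockout in the whole animal, or control. In 3-month-old mice, the conditional knockout (METTL5-cKO) carried the Myh6-Cre transgene, which is active in cardiomyocytes and spares the other cells of the heart, with floxed Mettl5 alleles, and was set against control littermates, whose alleles the labels do not give beyond the name control. The third pair of groups came from METTL5-cKO and control mice that had undergone transverse aortic constriction (TAC) 4 weeks earlier. TAC is a ligature of the aorta that overloads the left ventricle, and these mice were also labelled as 3-month-old. The mice were C57BL/6. The fourth pair was neonatal rat ventricular myocytes (NRVMs) from Sprague Dawley rats, recorded at postnatal day 2. The cells had been pre-plated to remove fibroblasts and infected with an adenovirus for METTL5 (AdMETTL5) or for GFP (AdGFP). All were treated with 20 μM phenylephrine (PE) for 24 h. PE is an adrenergic agonist that induces hypertrophy of these cells.

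Collagens are trimers of alpha chains wound into a triple helix. Fibrillar chains (types I, II, III, V, XI, XXIV and XXVII) form the tensile fibrils of the interstitium, type IV chains form the network of basement membranes around cardiomyocytes and vessels, and FACIT chains sit on the surface of fibrils. The remaining types include the beaded filaments of type VI, the networks of type VIII, the multiplexins XV and XVIII of basement membrane zones and transmembrane collagens. In the heart, fibroblasts are known as the main makers of fibrillar collagen, while endothelial and mural cells and cardiomyocytes contribute to basement membranes. In a bulk sample, more cells of one type and more RNA per cell of that type cannot be told apart.

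Several of these genes lie beside a partner, which matters for reading their values together. Col4a1 (chr8:11198423-11312826 in GRCm38, minus strand) and Col4a2 (chr8:11312805-11449287, plus strand) start head to head with overlapping ends, Col4a3 and Col4a4 start 71 bp apart on chromosome 1, and Col4a5 and Col4a6 start 1308 bp apart on the X chromosome. Col3a1 and Col5a2 lie tail to tail, 24614 bp apart on chromosome 1. The following sequences are RefSeq promoter windows (GRCm38.p6) that run from 250 bases before the transcription start to 50 bases after it, 5′ to 3′ on the strand of the gene. They are shown for the pair Col4a1 and Col4a2, whose starts both lie in the first window, for Col3a1 and Col1a2 as major fibrillar chains, and for Col8a1, which passed after TAC with any library left out. The capitals mark the CCAAT motif, the GGGCGG motif and the TATAAA motif, each read on both strands.
Col4a2 (chr8:11312555-11312854, plus strand): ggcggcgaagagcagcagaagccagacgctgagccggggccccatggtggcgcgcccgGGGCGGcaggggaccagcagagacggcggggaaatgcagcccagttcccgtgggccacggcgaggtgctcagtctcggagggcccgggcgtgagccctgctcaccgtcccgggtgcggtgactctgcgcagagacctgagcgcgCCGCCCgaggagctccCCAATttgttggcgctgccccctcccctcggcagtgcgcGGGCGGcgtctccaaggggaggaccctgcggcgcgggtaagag
Col3a1 (chr1:45311288-45311587, plus strand): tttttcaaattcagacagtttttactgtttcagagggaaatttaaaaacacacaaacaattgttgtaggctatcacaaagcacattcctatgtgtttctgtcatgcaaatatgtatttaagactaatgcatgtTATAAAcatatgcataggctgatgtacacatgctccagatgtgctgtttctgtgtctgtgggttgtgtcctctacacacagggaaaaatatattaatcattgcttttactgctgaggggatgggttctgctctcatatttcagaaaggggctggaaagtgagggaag
Col1a2 (chr6:4505368-4505667, plus strand): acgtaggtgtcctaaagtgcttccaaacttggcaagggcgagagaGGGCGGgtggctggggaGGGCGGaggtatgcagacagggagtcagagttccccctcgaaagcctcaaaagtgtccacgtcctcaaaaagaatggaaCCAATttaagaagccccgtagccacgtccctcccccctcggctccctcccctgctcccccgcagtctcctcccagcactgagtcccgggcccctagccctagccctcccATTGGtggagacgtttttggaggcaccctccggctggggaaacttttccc
Col8a1 (chr16:57754688-57754987, minus strand): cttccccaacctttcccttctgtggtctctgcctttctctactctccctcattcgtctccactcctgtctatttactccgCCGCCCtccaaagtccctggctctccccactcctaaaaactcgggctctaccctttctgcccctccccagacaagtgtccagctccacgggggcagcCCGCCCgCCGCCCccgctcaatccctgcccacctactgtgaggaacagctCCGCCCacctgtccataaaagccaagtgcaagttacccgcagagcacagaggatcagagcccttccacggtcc
The Col4a2 window held 1 CCAAT and 3 GGGCGG motifs and the Col1a2 window 2 of each. In the Col8a1 window there were 4 GGGCGG motifs, and the Col3a1 window held neither of these but 1 TATAAA. The table held 38 windows of 35 members, and none for Col1a1, Col12a1 or Col14a1. GGGCGG was present in 60.5% of these windows and in 35.7% of all 32851 windows, CCAAT in 34.2% against 37.4%, and TATAAA in 13.2% against 13.6%. These matches describe the letters of the windows only.

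Total counts per library ranged from 19899033 to 21804907 in the hearts. In the NRVMs they ranged from 17344430 to 18085339 in AdGFP and from 14324700 to 14642431 in AdMETTL5, so depth differed between these groups without overlap. The count of Mettl5 did not differ at the threshold in any of the groups labelled as knockouts, with log2 fold changes of 0.22 at 1 month, -0.18 at 3 months and -0.0357 after TAC (adjusted p = 0.973, 0.884 and 0.874, edgeR), and the directions below therefore rest on the labels. The conditional knockout loses part of the exons, in cardiomyocytes alone, and a count over the whole gene is no check of such a deletion. The transgene of AdMETTL5 is the human sequence, so the rat count, 17.03 ± 0.774 CPM in AdGFP and 21.2 ± 1.76 CPM in AdMETTL5 (SD, n = 4, log2 fold change 0.32, SE 0.0723, adjusted p = 0.00295, no overlap), is no direct check of it. A single control library at 1 month (library 1) stood apart from the others of its group, and library 4 labelled METTL5-cKO after TAC lay closest to the controls in most members that rose. Counts of members that passed without each of them are given below, and at 1 month also the fold changes of Col4a1 and Col4a2. Whether a library is 1 heart or 1 culture is not said in the labels, so the p-values measure the spread between these libraries.

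In the control hearts the highest collagen levels were those of the type IV pair. Per kilobase of exon, Col4a1 had 40.6 ± 5.22 and Col4a2 33.6 ± 4.02 CPM per kb (CPM, the count over the TMM-scaled library size; SD, n = 4) in the control hearts at 3 months, Col6a1 had 10.4 ± 0.732, Col1a1 8.43 ± 1.49, Col15a1 8.42 ± 1.46 and Col3a1 7.04 ± 1.5. Col1a1 and Col15a1 did not differ beyond their spread. In the control hearts after TAC the first places were held by the same chains, with 44.9 ± 5.05 for Col4a1, 34.8 ± 3.07 for Col4a2 and 13 ± 1.82 for Col6a1, and then 11.5 ± 2.98 for Col1a1 and 10.6 ± 3.05 CPM per kb for Col3a1. All members together took 0.0983 to 0.13% of the counts of a control library after TAC and 0.138 to 0.384% of a library labelled METTL5-cKO. In the latter the summed CPM of the fibrillar chains (median 1056) was above that of type IV (median 891). Library 4 labelled METTL5-cKO went the other way, with 462.3 CPM for the fibrillar chains and 689 CPM for type IV. These sums were not divided by exon length. Per kilobase of exon the type IV pair still had the higher means in these libraries, 68.9 ± 20 for Col4a1 and 55.2 ± 15.9 for Col4a2. Col3a1 had 39.2 ± 17.4 and Col1a1 37.6 ± 19.3 CPM per kb.

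The comparison after TAC asked how the loss of METTL5 in cardiomyocytes changed the heart under pressure overload. Of 31 members tested, 16 were higher after TAC in the libraries labelled METTL5-cKO than in the controls, while 0 fell (edgeR's quasi-likelihood test, adjusted p under 0.05, adjusted over all genes). Among all 16340 genes tested, 6.57% rose and 6.1% fell. With the cut of the study, which adds an absolute log2 fold change over 1, 11 members were called higher, against 2.01% of all genes. At an unadjusted p under 0.05, 22 members were higher and 2 lower, against 31% of all genes in either direction. DESeq2, with 39 members fitted, called 19 higher, and its share of all genes was not counted. The median log2 fold change of the members was 0.80, against -0.0035 over all genes tested, with 26 members above 0 (49.4% of all genes). In 15 of the 31, each library labelled METTL5-cKO lay above each control library, which was so for 9.41% of all genes. By class, 5 of 8 fibrillar, 2 of 6 type IV, 4 of 6 FACIT and 5 of 11 other chains rose. Col9a2, counted among these, met the filter on low counts through the libraries labelled METTL5-cKO alone, where it was high. So did Col12a1, narrowly, since control library 2, with 10 counts, lay just under the filter.

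**Figure D1:**
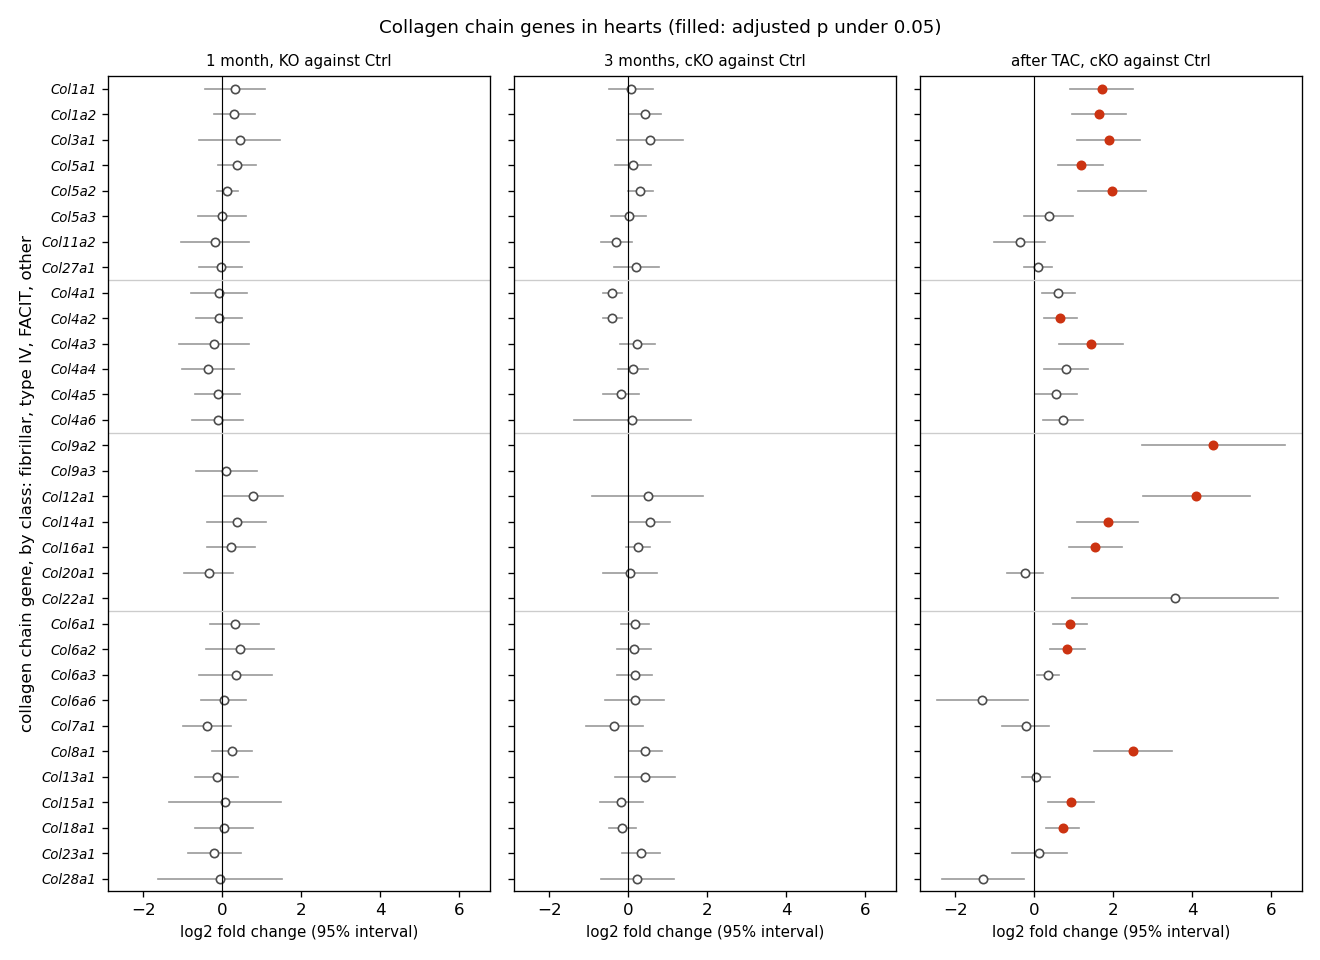
Log2 fold changes (points) with 95% intervals (lines) of the collagen chain genes tested in hearts at 1 month, 3 months and after TAC, in the order fibrillar, type IV, FACIT and other, with filled points for an adjusted p under 0.05 (edgeR). Filled points appear in the panel after TAC only, 16 of 31, and all of them lie above 0.

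The chains of types I and III, which make up most of the fibrils of the heart, rose by 1.66 to 1.89 on the log2 scale. Col1a1 (chr11:94936224-94953042) had 93.8, 59.7, 90.7 and 57.4 CPM in control libraries 1 to 4 and 408, 270.1, 200.4 and 108 CPM in libraries 1 to 4 labelled METTL5-cKO (log2 fold change 1.71, SE 0.359, adjusted p = 0.0194). Its partner in type I collagen, Col1a2 (chr6:4504814-4541544), had 97.9, 67.3, 86.9 and 66.1 CPM in the controls and 379.8, 262, 243 and 116 CPM in the libraries labelled METTL5-cKO (log2 fold change 1.66, SE 0.305, adjusted p = 0.0141). For Col3a1 (chr1:45311538-45349706) the values were 142, 78.8, 114 and 81.1 CPM and 572, 409, 399 and 157 CPM (log2 fold change 1.89, SE 0.353, adjusted p = 0.0146). The groups overlapped in none of these 3 genes, library 1 was the highest and library 4 the lowest of the libraries labelled METTL5-cKO in each, and control libraries 1 and 3 were above 2 and 4.

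Type V collagen sits inside type I fibrils and limits their diameter, and its chains differed in size of change. Col5a2, next to Col3a1 on chromosome 1 (chr1:45374321-45503282), had 25.4, 18.8, 20.6 and 17.5 CPM in the controls and 131, 83.1, 80.2 and 26.9 CPM in the libraries labelled METTL5-cKO (log2 fold change 1.97, SE 0.386, adjusted p = 0.0163). Col5a1 (chr2:27886425-28039514) went from 33.7, 24.8, 28.1 and 23.2 CPM to 91.2, 62.7, 61.3 and 34.2 CPM (log2 fold change 1.19, SE 0.254, adjusted p = 0.0205). Both pairs of groups were apart. The third chain, Col5a3, did not pass, with a log2 fold change of 0.37 (95% interval -0.25 to 0.98, adjusted p = 0.396), and was above the controls in libraries 1 and 2 labelled METTL5-cKO only. Col27a1 and Col11a2, fibrillar chains known best from cartilage, had log2 fold changes of 0.11 and -0.37 and did not pass (adjusted p = 0.682 and 0.426).

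Of 6 FACIT chains tested, 4 rose, and some of their folds stand over controls near 0. Col12a1 (chr9:79598991-79718831), a chain of tendon and of tissue under load that binds type I fibrils, was near the detection limit in the controls with 0.694, 0.486, 0.624 and 0.679 CPM, from 10 to 14 counts a library, and had 16.4, 12.7, 11.96 and 1.95 CPM in the libraries labelled METTL5-cKO (log2 fold change 4.11, SE 0.605, adjusted p = 0.00782). Library 4 was again low but above each control. Col9a2, a chain of type IX collagen, rested on fewer reads, with 3, 0, 6 and 0 counts in the controls and 99, 57, 81 and 12 counts in the libraries labelled METTL5-cKO (log2 fold change 4.53, SE 0.808, adjusted p = 0.0131), and its fitted fold depends on the prior count. Col14a1 (chr15:55307750-55520803), which regulates early fibril assembly, had 9.32, 6.22, 9.16 and 8.01 CPM in the controls and 45.6, 27.9, 33.8 and 11.8 CPM in the libraries labelled METTL5-cKO (log2 fold change 1.87, SE 0.346, adjusted p = 0.0143). Col16a1 had 7.49, 6.52, 7.08 and 7.08 CPM and 30.96, 20.96, 21.9 and 8.89 CPM (log2 fold change 1.55, SE 0.305, adjusted p = 0.0163), with no overlap. Col22a1, a chain of muscle and tendon junctions, had 63, 47, 30 and 0 counts in the libraries labelled METTL5-cKO against 10, 0, 0 and 0 in the controls and did not pass (adjusted p = 0.0718), nor did Col20a1 (-0.23, adjusted p = 0.468).

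The type IV chains moved less. Col4a1, which with Col4a2 makes the common network of basement membranes, had 387, 307, 340.5 and 307 CPM in the controls and 702, 564, 408 and 382 CPM in the libraries labelled METTL5-cKO (log2 fold change 0.62, SE 0.187, adjusted p = 0.0584) and missed the threshold, with library 4 just below control library 1. Col4a2 had 259, 217, 231 and 215 CPM and 487, 419, 279 and 277 CPM (log2 fold change 0.67, SE 0.183, adjusted p = 0.0432) and passed, with groups that did not overlap. Col4a3, a chain of the network best known from the kidney, had 5.5, 4.38, 6.35 and 4.66 CPM in the controls and 25.1, 13.5, 12.00 and 5.99 CPM in the libraries labelled METTL5-cKO (log2 fold change 1.44, SE 0.364, adjusted p = 0.034), and library 4 lay within the controls. The other type IV chains did not pass but had log2 fold changes above 0: 0.80 for Col4a4, 0.55 for Col4a5 and 0.73 for Col4a6 (adjusted p = 0.0639, 0.154 and 0.0626).

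Among the other types, Col8a1 (chr16:57624258-57754737), a chain of the networks under endothelium and in remodelling vessels, had 30.1, 16.1, 17.2 and 18.8 CPM in the controls and 164, 132, 136 and 31.9 CPM in the libraries labelled METTL5-cKO (log2 fold change 2.50, SE 0.442, adjusted p = 0.013). Control library 1 and library 4 labelled METTL5-cKO lay next to each other, and the groups were apart. Its partner Col8a2 did not pass the filter on low counts, with 5, 3, 8 and 7 counts in the controls and 170, 87, 99 and 5 in the libraries labelled METTL5-cKO. In type VI, the beaded filament between cells and fibrils, Col6a1 had 63.97, 49.8, 64.05 and 50.5 CPM and 145, 109, 103 and 71.8 CPM (log2 fold change 0.91, SE 0.192, adjusted p = 0.0194), and Col6a2, its neighbour on chromosome 10, had 71.1, 52.1, 66.2 and 48.5 CPM and 144, 109, 98.7 and 73.5 CPM (log2 fold change 0.84, SE 0.199, adjusted p = 0.0283). The third chain, Col6a3, had 20.7, 18.1, 19.9 and 15.2 CPM and 27.1, 25.1, 19.6 and 22.8 CPM and did not pass (log2 fold change 0.36, SE 0.125, adjusted p = 0.0894).

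The multiplexins rose by less than 1 on the log2 scale. Col15a1, a chain of muscle and capillary basement membranes, had 71.7, 51.1, 66.1 and 48.8 CPM in the controls and 165, 129, 99.1 and 63.4 CPM in the libraries labelled METTL5-cKO (log2 fold change 0.94, SE 0.26, adjusted p = 0.0443), with library 4 inside the control range. Col18a1, the precursor of endostatin, had 9.47, 6.86, 5.83 and 8.39 CPM and 16.7, 12.2, 10.99 and 10.6 CPM (log2 fold change 0.72, SE 0.184, adjusted p = 0.0344), with no overlap. The members below 0 were Col6a6 (-1.31), Col28a1 (-1.30), Col11a2, Col20a1 and Col7a1 (-0.21), and none of them passed. Col6a6 had 2.73, 2.82, 2.97 and 2.33 CPM in the controls and 0.439, 0.273, 1.13 and 2.6 CPM in the libraries labelled METTL5-cKO (adjusted p = 0.116), with library 4 at the level of the controls. Col13a1 and Col23a1, which are transmembrane collagens, had log2 fold changes of 0.0532 and 0.14 and did not pass. Of the 13 members not tested, Col11a1 had 0 counts in all controls and 38, 7, 9 and 4 in the libraries labelled METTL5-cKO.

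**Figure D2:**
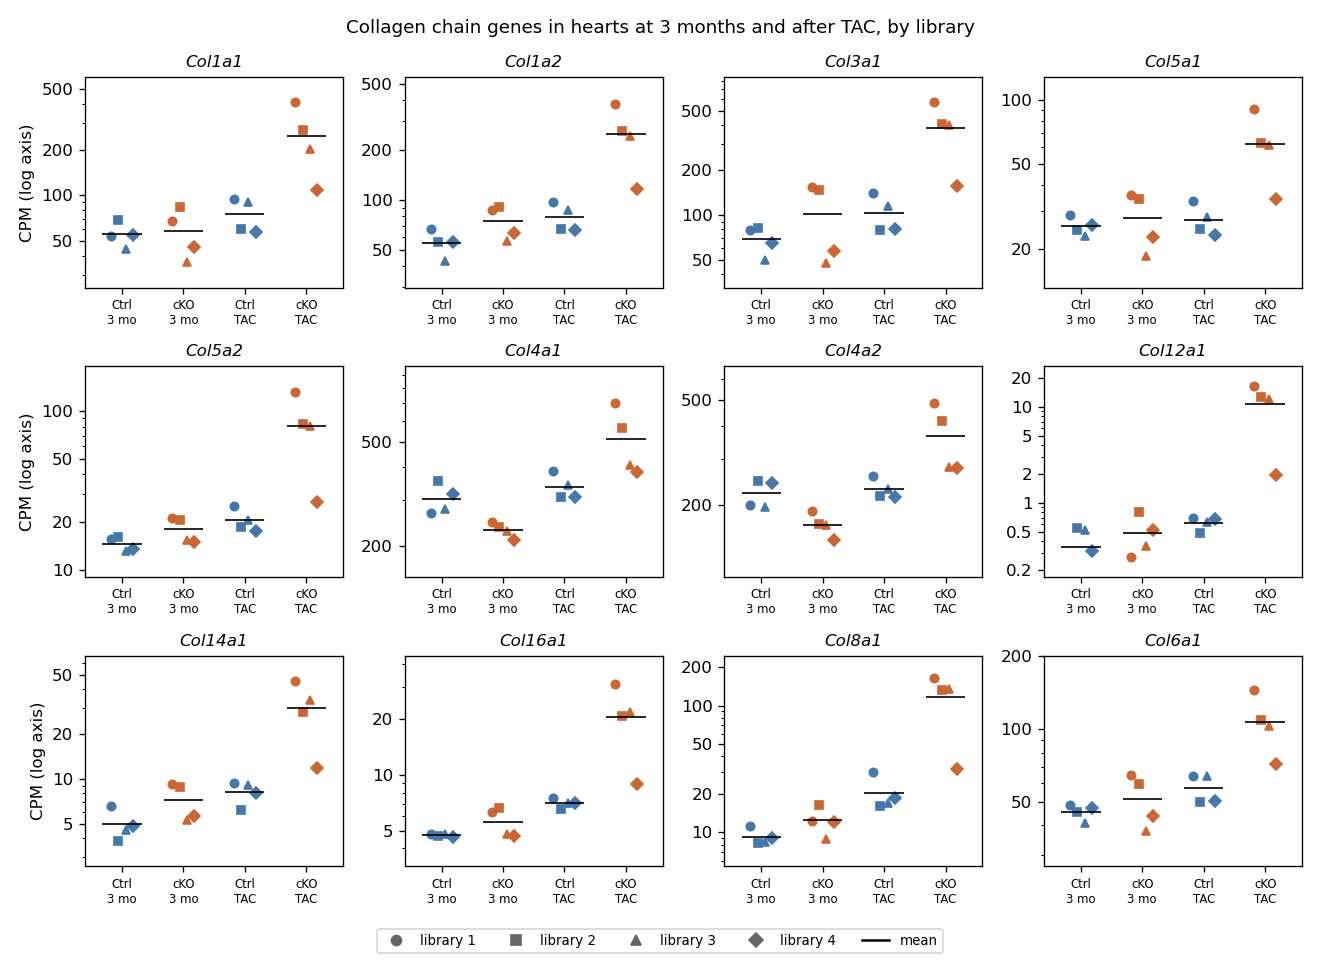
CPM (log axis) of 12 collagen chain genes in each library of the hearts labelled control and METTL5-cKO at 3 months and after TAC, with a marker shape for each library and a line at the group mean. Control library 1 at 3 months has 0 counts of Col12a1 and is not drawn, and CPM was scaled within each comparison. Libraries 1 to 3 labelled METTL5-cKO after TAC lie above the other groups in all 12 panels, and library 4 lies between them and the controls or, for Col4a1, at the level of control library 1.

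These calls depended on single libraries. The median log2 fold change of the members ranged from 0.59, without library 1 labelled METTL5-cKO, to 0.99, without library 4 labelled METTL5-cKO. The share of all genes that passed with a library left out was not counted. Only Col12a1, Col8a1 and Col9a2 passed with each of the 8 libraries left out in turn, and Col9a2 was tested only because of its counts in the group where it was high. In the fit of all 8 libraries this held, by a narrow margin, for Col12a1 as well. The count of members that passed was 3 without control library 4, 6 without control library 2, 8 without library 2 labelled METTL5-cKO, 10 without control library 3, 11 without library 1 labelled METTL5-cKO, and 12 without library 3 labelled METTL5-cKO, all higher. Without control library 1 it was 16, of which 15 were higher and 1 (Col28a1) lower, and without library 4 labelled METTL5-cKO it was 24, of which 23 were higher and 1 (Col6a6) lower. Under scaling by library size alone 20 members were higher and none lower. Of all 16340 genes 2584 then passed, 79.7% of them higher, against 2071 under TMM, 51.9% of them higher. The median of all genes shifted to 0.14 on the log2 scale.

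Markers of fibroblast activation moved with the collagens. The summed CPM of Postn, Cthrc1, Meox1, Comp and Thbs4 was 46.4 to 70.7 in the controls and 1009, 664, 657 and 114 in libraries 1 to 4 labelled METTL5-cKO, in which Col1a1, Col1a2 and Col3a1 had the same order. All 4 that were tested rose, of which Postn (3.64, adjusted p = 0.00948) is a matricellular protein of activated fibroblasts and Comp (4.60, adjusted p = 0.0146) and Thbs4 (4.13, adjusted p = 0.00978) are thrombospondins. General fibroblast markers rose in 3 of 6 (937 to 1058 against 1147 to 1632 CPM in sum), with Lum (0.84, adjusted p = 0.0263), Dcn (0.77, adjusted p = 0.0197) and Tcf21 (0.53, adjusted p = 0.0494). Endothelial markers fell in 5 of 6 (585 to 698 against 407 to 537 CPM), 1 of 6 cardiomyocyte markers fell (29650 to 33620 against 23000 to 29600 CPM), and 1 of 5 macrophage markers rose (99.9 to 128 against 129 to 167 CPM). Of pericyte markers 1 of 4 fell (608 to 681 against 496 to 601 CPM) and of Schwann cell markers 1 of 2 (4.91 to 8.38 against 2.32 to 4.79 CPM), and no marker of smooth muscle or of the epicardium passed. These counts stand beside 6.57% of all genes higher and 6.1% lower. The part of these cell types in the collagen values was not tested.

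Genes that modify, export, crosslink, bind or cleave collagen were read as 5 lists, beside 6.57% of all genes higher and 6.1% lower. All 5 crosslinking enzymes were tested and 4 rose, Lox most, from 5.27 ± 0.908 to 41.05 ± 24.6 CPM (log2 fold change 2.96, SE 0.468, adjusted p = 0.00953), with Loxl2 at 1.66 (adjusted p = 0.0174). Their median log2 fold change was 1.36. Of 9 genes of procollagen export and processing 3 rose and 1 fell, among them the N-proteinase Adamts2 (1.56, adjusted p = 0.0148) and the C-proteinase enhancer Pcolce2 (0.92, adjusted p = 0.00706). Of 18 genes of chain modification and folding 4 rose and 1 fell, with P4hb (0.89, adjusted p = 0.00253), the beta subunit of prolyl 4-hydroxylase, and P3h4 (-0.49, adjusted p = 0.0238), a partner of lysyl hydroxylation. In the 8 receptors tested 3 rose and 1 fell, with the discoidin receptor Ddr1 (0.78, adjusted p = 0.0111) and the endocytic receptor Mrc2 (0.95, adjusted p = 0.0104) higher. Of 6 collagenolytic enzymes 2 rose, Ctsk (1.24, adjusted p = 0.00979) and Mmp2 (0.98, adjusted p = 0.0156). The medians of these 4 lists were 0.19, 0.15, 0.25 and 0.32, against -0.0035 over all genes.

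In the hearts at 3 months without TAC, which came from other mice, no difference of a collagen chain between the genotypes passed. None of the 40 members fitted in DESeq2 passed, and its share of all genes was not counted. In edgeR none of 29 members passed. Among all 16391 genes 0.0732% passed, 0.0488% higher and 0.0244% lower, or 0.0366% and 0.0122% with the fold cut. At an unadjusted p under 0.05 there were 5, 3 higher and 2 lower, against 7.05% of all genes. The median log2 fold change of the members was 0.16, with 22 above and 7 below 0 (50.3% of all genes were above). The groups of 2 members, Col4a1 and Col4a2, did not overlap, both lower, and 2.04% of all genes were lower and 2.19% higher without overlap. Col4a1 had 268, 353, 276 and 315 CPM in the controls and 247, 236, 227 and 210.3 CPM in the libraries labelled METTL5-cKO (log2 fold change -0.40, SE 0.106, adjusted p = 0.358). Col4a2 had 201, 248, 198 and 243 CPM and 189.6, 170.4, 168 and 148 CPM (log2 fold change -0.40, SE 0.112, adjusted p = 0.414). The exact two-sided permutation test gave p = 0.0286 for each, the smallest that 4 against 4 libraries can give.

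The members with a positive unadjusted difference at 3 months were Col14a1, Col1a2 and Col8a1. Col14a1 had 6.58, 3.84, 4.58 and 4.83 CPM in the controls and 9.18, 8.81, 5.3 and 5.67 CPM in the libraries labelled METTL5-cKO (log2 fold change 0.55, SE 0.227, adjusted p = 0.669). Col1a2 had 66.8, 56.2, 43.1 and 55.9 CPM and 87.6, 91.3, 57.02 and 63.1 CPM (log2 fold change 0.43, SE 0.18, adjusted p = 0.672). For Col8a1 they were 11.3, 8.21, 8.35 and 9.01 CPM and 12.4, 16.6, 8.81 and 12.1 CPM (log2 fold change 0.43, SE 0.188, adjusted p = 0.697). Libraries 1 and 2 labelled METTL5-cKO were the high ones for most fibrillar chains, and the groups overlapped. Col3a1 showed this most, with 155, 146, 47.9 and 57.2 CPM in the libraries labelled METTL5-cKO against 79.5, 81.7, 49.9 and 65.3 CPM in the controls (log2 fold change 0.56, SE 0.37, adjusted p = 0.889). Col1a1 had 54.2, 68.3, 44.5 and 54.4 CPM in the controls and 67.6, 83.5, 36.1 and 45.3 CPM in the libraries labelled METTL5-cKO (log2 fold change 0.0716, 95% interval -0.48 to 0.62). The type V chains followed the same libraries, with Col5a1 at 28.9, 24.4, 22.97 and 25.99 CPM against 35.9, 34.4, 18.5 and 22.7 CPM (0.12) and Col5a2 at 15.6, 16.1, 13.2 and 13.5 CPM against 21.2, 20.6, 15.4 and 15 CPM (0.31, 95% interval -0.00991 to 0.62). Col16a1, also high in these libraries, had 4.8, 4.67, 4.76 and 4.6 CPM and 6.29, 6.61, 4.81 and 4.67 CPM (0.25).

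The chains of type VI and the multiplexins overlapped as well at 3 months. Col6a1 had 48.4, 45.5, 40.99 and 46.9 CPM in the controls and 64.3, 59.00, 37.7 and 43.6 CPM in the libraries labelled METTL5-cKO (0.17, 95% interval -0.19 to 0.53), and Col6a2 had 50.8, 45.7, 33.7 and 47.8 CPM and 64.4, 53.5, 34.9 and 44.1 CPM (0.15). In both genes library 1 labelled METTL5-cKO was the highest and library 3 the lowest. For Col6a3 the values were 18.2, 15.6, 12.6 and 20.5 CPM and 25.5, 18.3, 15.7 and 15.4 CPM (0.16). Col15a1 had 62.1, 56.9, 40.5 and 54.3 CPM and 70.04, 47.00, 27.9 and 44.04 CPM (-0.18), and Col18a1 had 6.62, 9.3, 7.92 and 6.1 CPM and 7.64, 6.79, 6.07 and 6.57 CPM (-0.14). Col12a1, which stood out after TAC, was near the detection limit in both groups, with 0, 0.541, 0.519 and 0.319 CPM and 0.271, 0.797, 0.359 and 0.524 CPM. The other members below 0 were Col11a2 (-0.31) and Col7a1 (-0.35), with Col15a1, Col18a1 and the type IV chain Col4a5 (-0.19), and none passed.

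Fibroblast markers summed to 772 to 984 CPM in the controls and 1063 to 1212 CPM in the libraries labelled METTL5-cKO at 3 months, and activated fibroblast markers to 25.9 to 31.6 and 25.8 to 36.4 CPM. Endothelial markers summed to 496 to 781 and 390.2 to 590.5 CPM. None of the 16 markers tested in these lists passed, and their part in the values of Col4a1 and Col4a2 was not tested. None of the genes in the 5 lists of collagen processing passed at 3 months, and the smallest adjusted p among them was that of Mmp2 (0.58, adjusted p = 0.135).

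Whether the genotype difference itself changed after TAC was tested by an interaction term over the 16 libraries. No member of 31 passed in edgeR, and 1 of 17070 genes did, which is 0.00586% of them. At an unadjusted p under 0.05 there were 20 members, 18 with a larger and 2 with a smaller difference after TAC, against 2011 of all 17070 genes. DESeq2, with 41 members fitted, called 8 with a larger difference. Without library 4 labelled METTL5-cKO after TAC 15 passed in edgeR, 14 of them with a larger difference. The share of all genes was not counted for DESeq2 or for the fit without library 4. The smallest p-values were those of Col4a2 (difference 1.08, SE 0.229, adjusted p = 0.123 in edgeR) and Col4a1 (1.03, SE 0.229, adjusted p = 0.123), which were lower in the libraries labelled METTL5-cKO at 3 months and higher after TAC. For Col8a1 the difference was 2.09 (adjusted p = 0.149), for Col5a2 1.68 (adjusted p = 0.16) and for Col12a1 3.63 (adjusted p = 0.174). The median over the members was 0.76, against 0.0034 over all genes. The hearts at 3 months and after TAC were deposited as separate tables, so that a level set across them cannot be told apart from a difference between the tables.

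**Figure D3:**
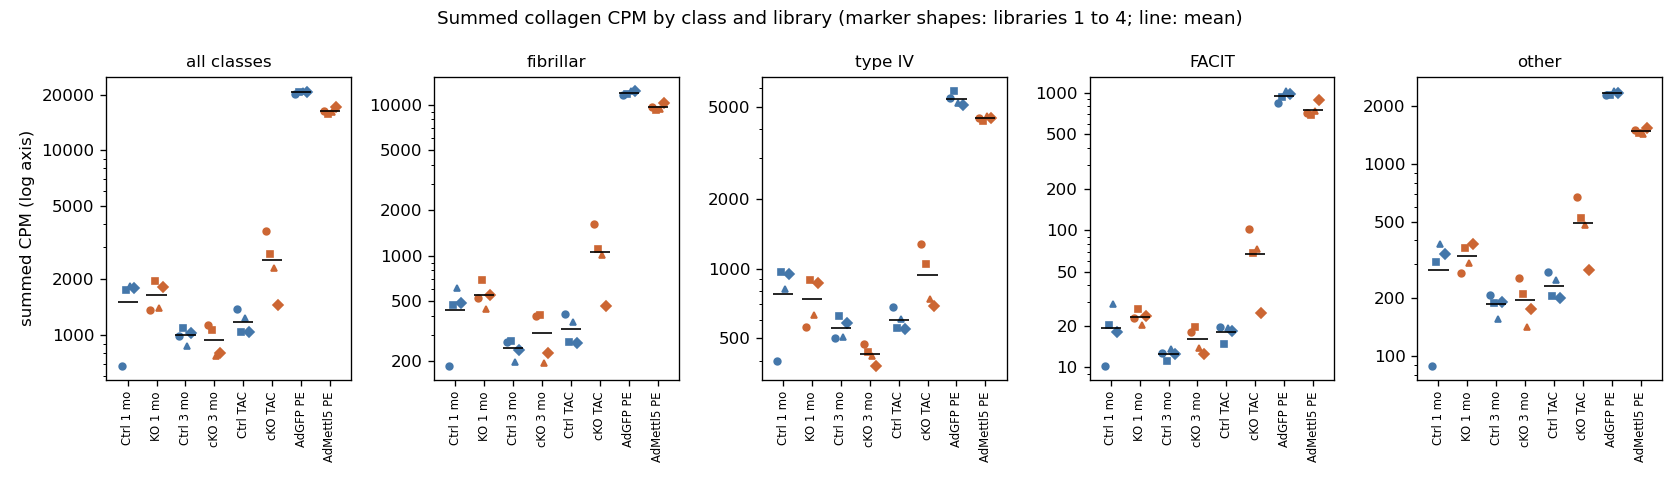
Summed CPM (log axis, scaled within each comparison) of the collagen chain genes, in all and by class, in each of the 4 libraries of the 8 groups, with a line at the mean. Libraries labelled METTL5-cKO after TAC lie between 1458 and 3672 CPM in all against 1034 to 1391 in their controls, and AdMETTL5 libraries between 15720 and 17110 against 20270 to 20950 for AdGFP.

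In 1-month-old hearts the collagen chains did not separate the groups. None of the 39 members fitted in DESeq2 passed, and its share of all genes was not counted. In edgeR none of 30 members passed, and 1 of all 16329 genes did (0.00612%). The single member at an unadjusted p under 0.05 was Col12a1, with 0.274, 0.57, 0.846 and 0.419 CPM in the controls and 0.961, 0.697, 1.01 and 0.875 CPM in the libraries labelled METTL5-KO (log2 fold change 0.78, SE 0.332, adjusted p = 0.973), where 4.57% of all genes reached that level. No member had groups without overlap, against 1.52% of all genes for higher and 1.49% for lower. The median log2 fold change was 0.042. Control library 1 was low in most collagens, with 8.15 CPM of Col15a1 against 113.9 to 131 in the other controls and 33.5 CPM of Col3a1 against 169 to 221, and its fibroblast markers summed to 595 CPM, the lowest of the controls. Its summed collagens were 682 CPM against 1762 to 1833 in the other controls and 1373 to 1972 in the libraries labelled METTL5-KO. Without it no member passed, and the median log2 fold change was -0.018. Type I and III values of the libraries labelled METTL5-KO lay inside the range of the controls or above it, as for Col1a1 with 140.3, 188, 114 and 150.5 CPM against 45.8, 135, 164 and 129 CPM (log2 fold change 0.32, SE 0.334, adjusted p = 0.973). None of the genes in the 5 processing lists passed, and none of the cell type markers did.

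At 1 month the fibrillar chains were low in control library 1 and mixed elsewhere. Col1a2 had 44.4, 78.99, 101 and 84.2 CPM in the controls and 93.8, 118, 75.9 and 94.3 CPM in the libraries labelled METTL5-KO (0.31 on the log2 scale), and Col3a1 had 33.5, 177, 221 and 169 CPM and 190.1, 271, 157 and 200.1 CPM (0.45). Col5a1 had 18.9, 32.2, 42.7 and 36.3 CPM and 42.1, 45.9, 36.6 and 44.3 CPM (0.38). Col5a2 did not share the low value, with 18.5, 18.3, 22.5 and 20.9 CPM in the controls and 23.1, 25.4, 20.1 and 19.1 CPM in the libraries labelled METTL5-KO (0.13).

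The groups also overlapped for the type IV pair. Col4a1 had 199, 554, 466 and 543 CPM in the controls and 299.8, 507, 354 and 503 CPM in the libraries labelled METTL5-KO (-0.082, 95% interval -0.78 to 0.62), and Col4a2 had 164, 385, 324 and 376 CPM and 236, 354, 250.4 and 339 CPM (-0.0822). In both genes libraries 2 and 4 of the libraries labelled METTL5-KO were higher than 1 and 3. Without control library 1 the log2 fold changes were -0.32 for Col4a1 and -0.29 for Col4a2 (adjusted p = 0.82 and 0.806, edgeR). Of type VI, Col6a1 had 34.96, 59.9, 102 and 84.1 CPM and 77.9, 95.5, 82.2 and 93.4 CPM (0.31), Col6a2 had 19.9, 66.8, 94.7 and 83.8 CPM and 78.5, 94.8, 80.6 and 106 CPM (0.44), and Col6a3 had 5.25, 16.8, 28.2 and 25.3 CPM and 18.4, 23.9, 24.1 and 29.1 CPM (0.35). Each of these 3 chains was lowest in control library 1.

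Of the other core chains at 1 month, Col14a1 had 4.19, 12.3, 16.4 and 11.5 CPM in the controls and 14.2, 16.6, 12.1 and 13.9 CPM in the libraries labelled METTL5-KO (0.36), and Col8a1 had 4.23, 7.79, 8.64 and 8.06 CPM and 10.5, 8.51, 6.84 and 7.97 CPM (0.24). Col18a1 had 4.31, 16.2, 12.6 and 12.8 CPM and 11.03, 13.3, 9.98 and 12.9 CPM (0.0455), and Col15a1 in the libraries labelled METTL5-KO had 62.1, 114, 91.4 and 127 CPM (0.0762). Their groups overlapped. The members below 0 with the smallest adjusted p were Col7a1 (-0.38), Col4a4 (-0.37), Col20a1 (-0.35), Col23a1 (-0.20) and Col13a1 (-0.14).

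Under PE, forced expression of METTL5 in NRVMs was accompanied by lower collagen chain counts. Of 35 members tested, 24 fell and 1 rose in AdMETTL5. These cells differed widely, and 52.8% of all 15041 genes passed, in shares of all genes 25.7% were lower and 27.1% higher. The median log2 fold change of the members was -0.43 against -0.0022 over all genes, and in 21 of them each AdMETTL5 library lay below each AdGFP library, which was so for 23.1% of all genes. The reverse held for Col7a1 and for 25.2% of all genes. Only 4 members lay above 0, against 49.7% of all genes, and the count at an unadjusted p under 0.05 was also 25, against 58.2%. Most changes were small: 4 members passed the fold cut, all lower, against 1.8% of all genes for lower and 4.05% for higher. By class, 5 of 10 fibrillar, 5 of 6 type IV, 3 of 7 FACIT and 11 of 12 other chains fell. Col23a1 and Col26a1, counted among these, met the filter on low counts through the AdGFP libraries alone, where they were high. DESeq2, with 40 members fitted, called the same numbers, 24 lower and 1 higher, and its share of all genes was not counted. Under scaling by library size alone, 20 fell and 3 rose. Of all 15041 genes 8215 then passed, 71.5% of them higher, against 7949 under TMM, 51.4% of them higher. The median of all genes shifted to 0.13 on the log2 scale.

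**Figure D4:**
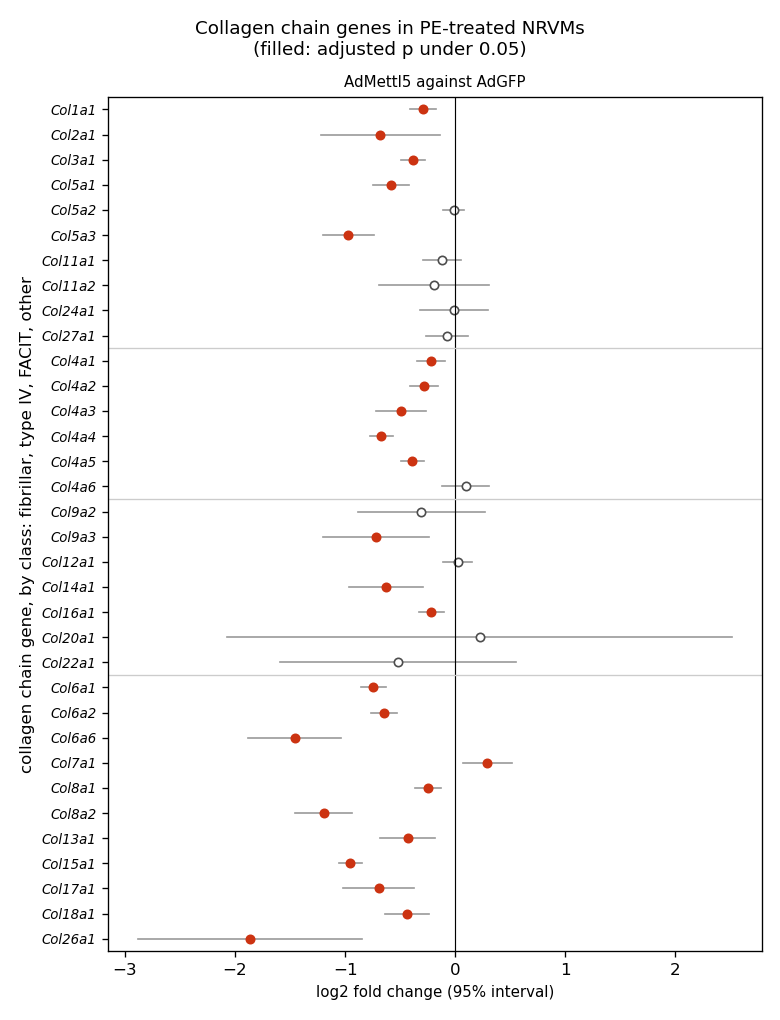
Log2 fold changes (points) with 95% intervals (lines) of the collagen chain genes tested in PE-treated NRVMs, AdMETTL5 against AdGFP, by class, with filled points for an adjusted p under 0.05 (edgeR). Col23a1, at 0 counts in all AdMETTL5 libraries, is left out. Of the points drawn, 23 filled ones lie below 0 and that of Col7a1 lies above.

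Among the fibrillar chains analysed in these cultures, which did not include Col1a2, the most abundant fell by less than 0.4 on the log2 scale. Col1a1 had 8270, 8182, 8547 and 8671 CPM in AdGFP and 6950, 6610, 6694 and 7296 CPM in AdMETTL5 (log2 fold change -0.29, SE 0.0546, adjusted p = 0.000794). Col3a1 had 2045, 2114, 2253 and 2119 CPM and 1639, 1563, 1615 and 1726 CPM (log2 fold change -0.38, SE 0.0517, adjusted p = 6.55e-05). In both, each AdMETTL5 library was below each AdGFP library. The type V chains went apart, with Col5a3 at 130.2, 124, 159 and 155 CPM against 67.7, 69.4, 63.3 and 89.2 CPM (log2 fold change -0.97, SE 0.107, adjusted p = 1.35e-05) and Col5a1 at 665, 719.6, 796 and 772 CPM against 479, 445, 485 and 562 CPM (log2 fold change -0.58, SE 0.0758, adjusted p = 4.83e-05). Col5a2 had 481, 492, 504 and 464 CPM in AdGFP and 486, 472, 495 and 468 CPM in AdMETTL5, with overlapping groups and a log2 fold change of -0.0148 (95% interval -0.11 to 0.0813, adjusted p = 0.799), which became 0.12 (adjusted p = 0.0443) under scaling by library size alone. The fifth fibrillar chain that fell was the low Col2a1 (-0.68, adjusted p = 0.0354), a call that was lost in 5 of the 8 fits with a library left out. Col11a1 (-0.12), Col11a2 (-0.19), Col24a1 and Col27a1 (-0.0743) did not pass.

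Of the type IV chains, Col4a4 fell most, from 347, 352, 365 and 383 CPM to 219.9, 225, 222 and 241 CPM (log2 fold change -0.67, SE 0.0486, adjusted p = 4.51e-07), followed by Col4a3 (-0.49, adjusted p = 0.00193) and Col4a5 (-0.39, adjusted p = 3.07e-05). Col4a1 had 3088, 3269, 2838 and 2795 CPM in AdGFP and 2591, 2523, 2608 and 2549 CPM in AdMETTL5 (log2 fold change -0.22, SE 0.0583, adjusted p = 0.00659), a call that was lost under scaling by library size alone (-0.086, adjusted p = 0.13). Col4a2 had 1793, 1965, 1692 and 1657 CPM and 1458, 1403, 1520 and 1462 CPM (log2 fold change -0.28, SE 0.0597, adjusted p = 0.00176). Both pairs of groups were apart. Col4a6 did not pass (0.10, adjusted p = 0.431). Among FACIT chains, Col14a1 had 421, 461, 619 and 571 CPM against 303, 284, 299 and 458 CPM (log2 fold change -0.62, SE 0.154, adjusted p = 0.00467), with AdMETTL5 library 4 inside the range of AdGFP, and Col16a1 (-0.22, adjusted p = 0.00446) and Col9a3 (-0.72, adjusted p = 0.0157) also fell. Col12a1 had 325, 372, 312 and 320.0 CPM and 323, 324, 361 and 342 CPM and did not pass (0.0226, 95% interval -0.11 to 0.16), but was called higher under scaling by library size alone (0.16, adjusted p = 0.0321).

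Among the other types, 11 of 12 members fell and 1 rose. Col15a1 had the smallest adjusted p of all members, with 70.9, 72.03, 72.3 and 70.3 CPM in AdGFP and 38.1, 34.7, 36.4 and 38.4 CPM in AdMETTL5 (log2 fold change -0.95, SE 0.0478, adjusted p = 3.06e-08). Col6a1 had 642, 623, 685 and 660.5 CPM and 388, 376, 372 and 423 CPM (log2 fold change -0.74, SE 0.053, adjusted p = 3.97e-07), and Col6a2 1051, 1043, 1137 and 1092 CPM and 698, 670.4, 646 and 742 CPM (log2 fold change -0.65, SE 0.0542, adjusted p = 1.42e-06). No AdMETTL5 library of these 3 genes reached the lowest AdGFP library. Col8a2 fell from 79.3, 80.8, 111 and 100.3 CPM to 40.8, 37.2, 35.5 and 48.6 CPM (log2 fold change -1.20, SE 0.12, adjusted p = 6.17e-06) while Col8a1, its partner in type VIII, had 101, 113, 103 and 97.03 CPM and 90.3, 83.97, 88.02 and 86.4 CPM (log2 fold change -0.25, SE 0.0527, adjusted p = 0.00181), a call lost under scaling by library size alone. Col18a1 had 312, 318, 255 and 277 CPM and 228, 225, 230.1 and 176 CPM (log2 fold change -0.44, SE 0.0914, adjusted p = 0.00162). The low members Col6a6 (-1.46) and Col26a1 (-1.86) also passed the fold cut, and the transmembrane chains Col13a1 (-0.43, adjusted p = 0.00755) and Col17a1 (-0.70, adjusted p = 0.00192) fell. Col23a1 had 13, 15, 11 and 12 counts in AdGFP and 0 in all AdMETTL5 libraries, at least 3.81-fold lower against a floor of 3 counts a library. Col7a1, the chain of anchoring fibrils, was the 1 member that rose, from 11.6, 12.2, 9.34 and 8.95 CPM to 13.2, 12.3, 13.3 and 12.7 CPM (log2 fold change 0.29, SE 0.102, adjusted p = 0.0296), and it did not pass without AdGFP library 3 or 4, without AdMETTL5 library 1 or 3, or with no filter on low counts.

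Markers of several cell types were also lower in AdMETTL5, in a comparison where 25.7% of all genes were lower and 27.1% higher. Cardiomyocyte markers summed to 24790 to 32670 CPM in AdGFP and 10720 to 12050 CPM in AdMETTL5, and all 5 tested fell. Fibroblast markers fell in 5 of 6 (709.5 to 761 against 608 to 655 CPM), and of 5 activated fibroblast markers 4 fell and 1 rose (895 to 969 against 612 to 663 CPM). Smooth muscle markers rose in 2 of 4 (2677 to 3393 against 3204 to 3705 CPM) and 1 of 4 endothelial markers rose (37.96 to 41.4 against 50.5 to 55.1 CPM). All 4 epicardial markers fell (11.7 to 17.7 against 6.55 to 9.11 CPM), as did 1 of 3 macrophage and 1 of 2 Schwann cell markers tested, with Cd163 at 0, and of 4 pericyte markers 1 rose and 1 fell. Fibroblast markers were thus present in cultures that had been pre-plated against fibroblasts. The part of these cells in the collagen values was not tested.

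The lists of collagen processing held calls in both directions, to be read against the 25.7% of all genes that were lower and the 27.1% that were higher. Of 18 genes of modification and folding 9 fell and 2 rose, with Fkbp14 (-0.66, adjusted p = 9.17e-06) and P3h4 (-0.46, adjusted p = 3.95e-05) lower, the first a prolyl isomerase of the endoplasmic reticulum. Of 8 genes of export and processing 2 fell, Pcolce (-0.29, adjusted p = 0.00014) and Adamts2 (-0.49, adjusted p = 0.000385), and 1 rose. In the crosslinking enzymes Loxl1 fell, from 324 ± 10.4 to 199.5 ± 10.3 CPM (log2 fold change -0.70, SE 0.0483, adjusted p = 3.18e-07), and Loxl3 (0.16, adjusted p = 0.0269) rose, of 5 tested. Receptors fell in 4 of 8, with Ddr1 (-0.43, adjusted p = 1.57e-05) and Itga1 (-0.62, adjusted p = 3.36e-05), and none rose. Of 6 collagenolytic enzymes 4 fell, among them Mmp14 (-0.35, adjusted p = 0.000109) and Ctsk (-0.51, adjusted p = 0.000732), and 1 rose.

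Counts of partner chains within a library do not depend on the scaling between libraries. The ratio of Col4a2 to Col4a1 counts lay between 0.67 and 0.822 in all 24 heart libraries, and between 0.556 and 0.583 in AdMETTL5 against 0.581 to 0.601 in AdGFP. The ratio of Col5a1 to Col5a2 counts was 1.33, 1.32, 1.36 and 1.32 in the control hearts after TAC and 0.695, 0.755, 0.764 and 1.28 in the libraries labelled METTL5-cKO. Each library labelled METTL5-cKO was below each control, library 4 by a small margin. In the NRVMs the same ratio was 1.38, 1.46, 1.58 and 1.66 in AdGFP and 0.984, 0.943, 0.981 and 1.2 in AdMETTL5, also without overlap. At 3 months it was 1.52 to 1.93 in the controls and 1.2 to 1.69 in the libraries labelled METTL5-cKO, with overlap. At 1 month the order was the other way, with 1.02 in control library 1, 1.74 to 1.9 in the other controls and 1.81 to 2.31 in the libraries labelled METTL5-KO, also with overlap. For Col6a2 to Col6a1 the ratio was 0.96 to 1.11 in the controls and 0.958 to 1.02 in the libraries labelled METTL5-cKO after TAC, and the groups overlapped at 1 month and at 3 months as well. In the NRVMs it was 1.64 to 1.68 in AdGFP and 1.73 to 1.8 in AdMETTL5, without overlap.

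**Figure D5:**
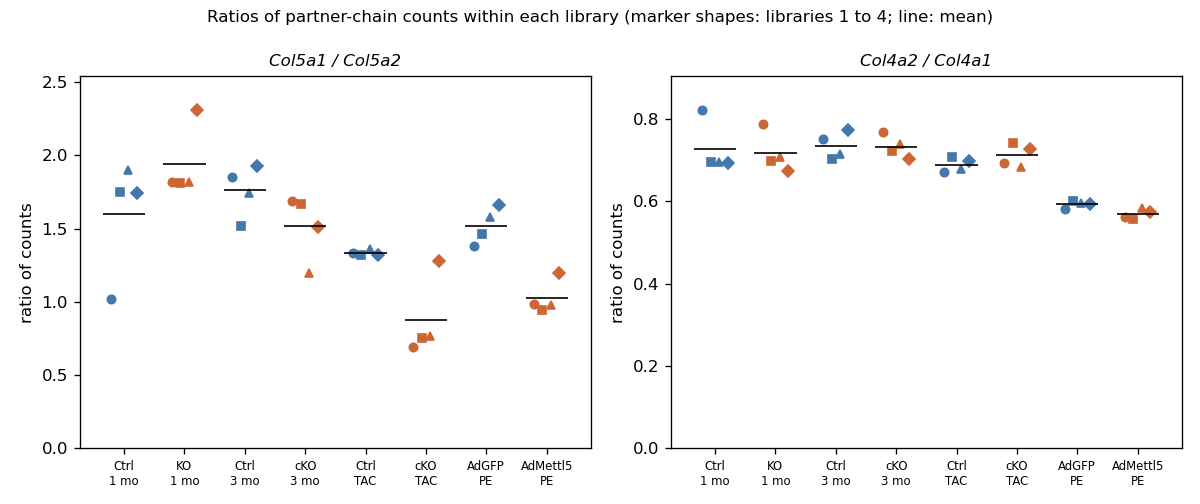
Ratio of Col5a1 to Col5a2 counts and of Col4a2 to Col4a1 counts in each library of the 8 groups, with a line at the mean and axes from 0. The ratio of the type V chains is lower in each library labelled METTL5-cKO after TAC (0.695 to 1.28) than in each control (1.32 to 1.36), and that of the type IV chains stays between 0.67 and 0.822 in all hearts.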

How the data were processed

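The authors aligned the reads with HISAT2 2.0.4 to GRCm38 or Rnor_6.0 and deposited estimated counts per gene from StringTie 2.1.4, which are whole numbers without scaling, and the submitters' processing notes also name DESeq2 1.4.5. Strandedness is not given in the sources used here. Since 28 of the 44 mouse members overlap another annotated gene, 18 of them on the other strand, their reads cannot be fully told apart. The design had assumed plain counts, and the tests were run on the estimated counts as deposited. Tables were fitted one at a time with edgeR 4.0.16 under R 4.3.3. Scaling was by TMM, low genes were removed with filterByExpr (minimum count 10, minimum total 15), and tests used glmQLFit and glmQLFTest with Benjamini-Hochberg adjustment over all genes. The interaction was fitted over 16 libraries. SE is the absolute log2 fold change over the square root of F. An exact permutation test, two-sided, was run for each gene over 70 labellings of log2 CPM (prior count 2, smallest p 0.0286).

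Column names gave the sample at 1 month and only the group elsewhere, where library numbers 1 to 4 follow the order of the columns and are names only. The genotype label of the conditional knockouts reads Mettl5-KO and their titles Mettl5-cKO. At 1 month the replicate numbers did not pair the libraries (correlations of same-numbered deviations 0.239, 0.12, -0.107 and 0.0782). Replicates all differed by more than sampling noise (lowest chi-square over degrees of freedom 2.11). Depth is the total count per library, given above, and 3 counts were taken as the floor. The members and lists were chosen with earlier results of these data known, so no list was tested as a set. Named were 15 core chains, per comparison the 5 members above and the 5 below 0 that had the lowest adjusted p, and the 2 members of each processing list with the smallest adjusted p. Other members, among them those under the count filter, were named after their values were seen. Positions and exon lengths come from GENCODE vM21, where all 44 members matched, and promoter windows from RefSeq. Rat positions were not analysed here. DESeq2 1.42.0, other scalings and filters and leaving out each library were the alternatives, and the scripts were tested on simulated data.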

Additional observations from a re-analysis of the deposited data

Results flagged for a closer look

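There were 6 values that stood apart from the other 3 libraries of their group by Dixon's ratio, of 194 groups of 4 examined, where chance alone flags about 1 in 20. At 1 month, control library 1 had 8.15 CPM of Col15a1 against 113.9 to 131 in the other controls, and its summed collagen CPM was 682 against 1762 to 1833. After TAC, control library 3 had 3.75 CPM of Col11a2 against 2.28 to 2.38 in the other controls, and library 4 labelled METTL5-cKO had 1.35 CPM of Col28a1 against 0.745 to 0.82. In the NRVMs, AdMETTL5 library 4 had 457.8 CPM of Col14a1 against 283.5 to 303 and 175.9 CPM of Col18a1 against 225 to 230.1 in the other AdMETTL5 libraries.

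For Col4a2 each library labelled METTL5-cKO lay below each control at 3 months and above each control after TAC. The interaction term was 1.08 on the log2 scale (adjusted p = 0.123, edgeR), so the difference between both settings did not pass the correction over all genes.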

How the results depend on the processing

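The counts of members that passed stayed within 1.5 times of the reported one except for these. At an unadjusted p under 0.05 the counts were 1 at 1 month, 5 at 3 months and 20 for the interaction. DESeq2 gave 8 for the interaction, and with the fold cut 4 passed in the NRVMs. When single libraries were dropped, the count ranged from 3 to 24 after TAC, from 0 to 15 for the interaction, from 22 to 25 in the NRVMs, and was 0 at 1 month and at 3 months. The cause was not tested. With the replicate number as a replicate block at 1 month, 0 members passed, as without it. No paired analysis was possible because the columns of the other tables carry no replicate numbers of the labels. Of the named genes, 2 changed sign under scaling by library size alone, Col4a1 at 1 month (0.0038) and Col5a2 in the NRVMs (0.12). With libraries left out, signs changed at 1 month for Col15a1 (-0.31 to 0.29), Col18a1 (-0.23 to 0.27), Col4a1 (-0.32 to 0.0503) and Col4a2 (-0.29 to 0.038), at 3 months for Col15a1 (-0.44 to 0.00102), Col1a1 (-0.16 to 0.24), Col5a1 (-0.027 to 0.27), Col6a2 (-0.017 to 0.27) and Col6a3 (-0.026 to 0.28), and in the NRVMs for Col12a1 (-0.012 to 0.079), Col20a1 (-0.47 to 1.33) and Col5a2 (-0.037 to 0.0015). With no filter, 12 members passed after TAC, and Col15a1, Col18a1, Col4a2 and Col6a2 were among those lost. Col4a1 passed after TAC under DESeq2 (adjusted p = 0.00859), library size alone (0.0291) and at least 10 counts in every library (0.0498). The median SE of a log2 fold change over all genes was 0.0807 in the NRVMs, 0.135 after TAC, 0.157 in the 3-month hearts and 0.175 in the 1-month hearts.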

Other observations

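Of the members under the count filter after TAC, only Col8a2 passed when no filter was applied (log2 fold change 3.77, adjusted p = 0.0466, edgeR), and Col11a1 did not (adjusted p = 0.0835), with 0 counts in all controls. Col8a2 rests on libraries 1 to 3 labelled METTL5-cKO, since library 4 had 5 counts.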
